A study of Mus musculus with 24 samples.

Results

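Cytotoxic lymphocytes kill target cells with a small set of gene products, and 10 of these were followed here across 4 groups of tumor-bearing mice. They are a set named for its function, chosen with earlier results of these data known and not cut by a level or a difference: the granzymes Gzma, Gzmb, Gzmc, Gzmd, Gzme, Gzmf and Gzmk, the pore-forming protein gene Prf1, the granule membrane protein gene Nkg7 and the death ligand gene Fasl. All 10 were among the 16996 genes with a deposited value in each of the 24 libraries. Every member was higher on average after T-PNU than in untreated tumors, by 0.31 to 1.10 on the log2 scale. Only 2 of the 10 differences passed the test across all libraries, against 0.135% of all genes called higher. In the comparison with T-DM1, 7 of 10 passed, against 12.4% of all genes. Without 1 untreated library that was singled out after its values were seen, all 10 differences from untreated tumors passed, against 7.55% of all genes.

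The cells came from EMT6-hHER2 tumors, a murine breast cancer line from which a clone carrying human HER2 was taken, grown in the mammary gland of wild-type, immunocompetent female Balb/c mice aged 10 to 12 weeks. At a tumor volume of 80 mm3 the mice received a single intravenous injection or, in the untreated group, none. Trastuzumab, an antibody to HER2, was given at 20 mg/kg, T-DM1 (trastuzumab linked to a maytansine-type microtubule poison) at 15 mg/kg, and T-PNU (trastuzumab linked to an anthracycline derivative) at 1 mg/kg. Tumors were taken 10 days later per the labels, CD45+ cells (leukocytes) were enriched on magnetic beads, and the RNA of each mouse gave 1 library, for 6 libraries in each group. The study's methods give a small tumor volume at harvest, below that at treatment, for the T-PNU group, and a figure legend gives it as an average. Harvest volumes of the other groups are not given. The study reports that trastuzumab and T-DM1 did not prevent tumor growth. Tumor size at harvest and treatment therefore cannot be told apart. The enriched cells are a mixture, so that for every value below, more cytotoxic cells and more RNA per cytotoxic cell cannot be told apart.

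Granzymes are serine proteases stored in the secretory granules of cytotoxic T cells and natural killer (NK) cells. Perforin, the product of Prf1, forms pores that let granzymes into the target cell, and Nkg7 is a granule membrane protein needed for efficient granule release. Fas ligand acts by another route: it engages the death receptor Fas on the target cell and starts the extrinsic apoptosis pathway. Granzyme B cleaves after aspartate and activates caspases, granzymes A and K cut after basic residues, and granzymes C to F are rodent relatives of granzyme B whose substrates are less well known.

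The granzyme genes lie in 2 clusters. On the mm10 (GRCm38) assembly in the GENCODE M21 annotation, Gzmb, Gzmc, Gzmd, Gzme and Gzmf occupy 145 kb of the minus strand of chromosome 14, from position 56117626 (the end of Gzme) to position 56262260 (the start of Gzmb), each with 5 exons. Gzma starts at position 113100981 of chromosome 13 on the minus strand, and Gzmk lies near it on the same strand. Prf1 is on the plus strand of chromosome 10, Nkg7 on the plus strand of chromosome 7 and Fasl on the minus strand of chromosome 1. Because Gzmc to Gzmf moved together in the results that follow, and differently in part from Gzmb, the 250 bases before the RefSeq start (GRCm38.p6) of these 5 genes are shown, with matches to 4 short motifs in capitals. The motifs searched on both strands were AGGTGT (T-box), TGTGGT (Runx), TGANTCA (AP-1) and TTCNNNGAA (STAT). A match is a stretch of letters and not a known binding site.
Gzmc: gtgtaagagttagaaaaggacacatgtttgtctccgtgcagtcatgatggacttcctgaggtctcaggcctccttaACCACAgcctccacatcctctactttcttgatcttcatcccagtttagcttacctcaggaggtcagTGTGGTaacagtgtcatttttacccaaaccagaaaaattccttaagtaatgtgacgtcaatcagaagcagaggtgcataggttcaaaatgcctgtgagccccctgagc
Gzmd: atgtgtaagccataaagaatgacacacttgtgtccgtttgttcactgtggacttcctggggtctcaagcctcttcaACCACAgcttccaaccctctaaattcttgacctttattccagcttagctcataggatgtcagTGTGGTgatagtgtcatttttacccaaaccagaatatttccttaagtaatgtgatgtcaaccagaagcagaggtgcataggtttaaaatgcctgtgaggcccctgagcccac
Gzme: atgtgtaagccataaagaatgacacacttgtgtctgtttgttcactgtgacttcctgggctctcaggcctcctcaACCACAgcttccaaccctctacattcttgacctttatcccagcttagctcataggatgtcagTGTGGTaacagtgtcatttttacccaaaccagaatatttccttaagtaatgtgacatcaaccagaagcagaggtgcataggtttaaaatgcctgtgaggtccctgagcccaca
Gzmf: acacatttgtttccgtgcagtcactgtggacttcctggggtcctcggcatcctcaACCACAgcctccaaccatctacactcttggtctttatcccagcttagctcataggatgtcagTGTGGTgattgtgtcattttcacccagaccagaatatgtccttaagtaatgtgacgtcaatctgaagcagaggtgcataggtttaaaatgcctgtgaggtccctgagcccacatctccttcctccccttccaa
Gzmb: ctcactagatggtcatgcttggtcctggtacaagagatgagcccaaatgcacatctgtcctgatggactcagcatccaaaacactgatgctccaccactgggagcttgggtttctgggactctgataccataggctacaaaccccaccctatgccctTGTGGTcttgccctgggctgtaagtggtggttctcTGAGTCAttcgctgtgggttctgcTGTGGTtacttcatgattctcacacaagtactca

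These windows are chr14:56234658-56234907 for Gzmc, chr14:56132594-56132843 for Gzmd, chr14:56120626-56120875 for Gzme, chr14:56211408-56211657 for Gzmf and chr14:56262335-56262584 for Gzmb, all on the minus strand. Gzmc, Gzmd, Gzme and Gzmf each carried 2 matches to the Runx letters, and the surrounding sequence was alike: aligned end to end, the windows of Gzmd and Gzme were 94.8% identical, those of Gzmc and Gzme 80.9% and those of Gzme and Gzmf 74.9%. The Gzmb window also held 2 Runx matches, and it alone among the 10 held an AP-1 match. Of the 10 members, 8 had at least 1 Runx match (all but Gzmk and Fasl), against 14% of 32851 promoter windows of the same length. T-box letters were found in 4 of 10 (Gzma, Gzmk, Prf1 and Nkg7), against 11.8% of windows. The AP-1 and STAT letters were found in 1 member each, Gzmb and Nkg7, against 6.75% and 7.02% of windows. The 4 similar windows of Gzmc to Gzmf are close copies of one another and do not count as 4 separate observations.

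Near-identical sequence can also blur which gene a read is assigned to. The longest annotated transcripts of Gzmd and Gzme were 90.0% identical end to end, those of Gzme and Gzmf 84.7%, and those of Gzmc and Gzme 70.6%. With reads of 81 bases, 4.19% of all distinct windows of that length in Gzmd transcripts, and 3.11% of those in Gzme, also occurred in another gene (each other or Gzmg). The other 8 members shared no such window with any annotated gene. Values of Gzmd and Gzme may therefore hold a small share of each other's reads, and how reads with several matches were counted is not given in the sources used here.

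Values are the deposited log2 normalized expression. Library medians were between 8.73 and 8.87, and no 2 libraries were identical. Read depth per library is unknown, so no counting error can be attached to any value. The marker genes of T cells (Cd3e), CD8 T cells (Cd8a) and NK cells (Ncr1) were well above the lowest value in the table (1.13) in every library, with Cd8a between 8.43 and 10.79 and Ncr1 between 6.31 and 7.85. A single untreated library, C1, stood apart for the members: it was above the 24-library median for 10 of 10 members and among the highest 3 of 24 for 7 of them, whereas the other 5 untreated libraries were above the median for at most 1 member each. C1 also had the highest Cd8a level of all 24 libraries (10.79) and the fourth highest Ncr1 level (7.63). Another untreated library, B1, had high Cd3e (10.13) and Cd8a (10.20) beside low Ncr1 (6.38). The study's heatmaps do not name B1 and C1, nor the trastuzumab libraries E2 and B3. Its methods describe a step to find and remove outlying samples by the similarity of their expression, without saying which were removed, so the choice may rest on expression itself. All 24 libraries form the main result here, and values for the other 20 are given beside it. The heatmaps also mark some T-PNU libraries as low-responding, and T-PNU is kept here as a single group. The untreated mice and the T-PNU mice each carried a separate run of numbers in the column headings, and the trastuzumab and T-DM1 runs adjoined each other. Any difference between cohorts handled separately cannot be told apart from treatment.

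**Figure D1:**
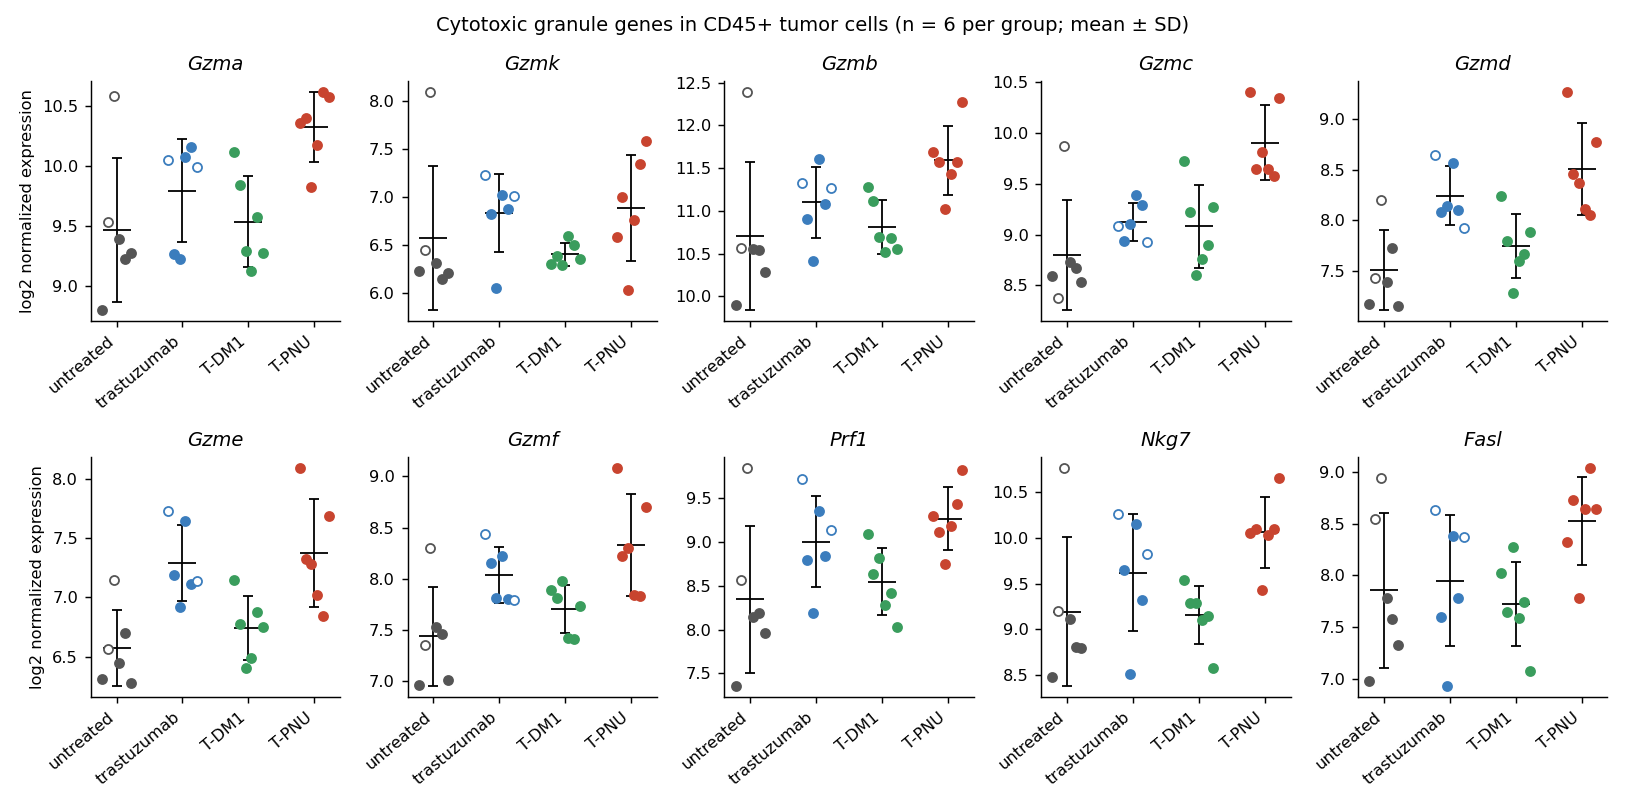
Log2 normalized expression of the 10 genes (y axis, own scale per gene) in each library, by group on the x axis. Bars give the mean and SD of 6 libraries, and hollow points are the 4 libraries not named in the study's heatmaps. The hollow untreated point at the top of most panels is C1; the T-PNU points (red) lie above the other 5 untreated points for 8 of the 10 genes.

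Per length of transcript, the order of the members was much the same in every group. After subtracting the log2 of the merged exon length in kb, mean levels in T-PNU tumors were 11.07 ± 0.40 (SD, n = 6) for Gzmb, 10.32 ± 0.29 for Gzma, 10.19 ± 0.39 for Nkg7 and 10.06 ± 0.37 for Gzmc. Gzmd (8.56 ± 0.45) and Gzmf (8.45 ± 0.49) followed, then Prf1 (7.90 ± 0.35), Fasl (7.57 ± 0.43), Gzme (7.50 ± 0.45) and, lowest, Gzmk (6.41 ± 0.55). Gzmb thus had the highest mean of the members and Gzmk the lowest, in all 4 groups. In T-PNU tumors the ranges of Gzma, Nkg7 and Gzmc overlapped, as did those of Gzmd and Gzmf and those of Prf1, Fasl and Gzme. Ranges also overlapped across these sets, such as Gzmb (10.50 to 11.75) with Gzma (up to 10.61) and Gzmk (up to 7.11) with Gzme (from 6.97). The order of neighboring members is therefore not resolved by these ranges. The transformation behind the deposited log2 values is not named, which limits any such comparison between genes.

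In the comparison of T-PNU with untreated tumors, Gzmc and Gzmd, granzyme B relatives of chromosome 14, passed the test on all 24 libraries. Gzmc ranged from 8.38 to 9.87 with a median of 8.63 in untreated tumors and from 9.57 to 10.40 with a median of 9.73 after T-PNU. All 6 T-PNU libraries were above 5 of the 6 untreated libraries, and C1 (9.87) alone fell inside the T-PNU range. The difference was 1.10 ± 0.22 (SE) on the log2 scale, a 2.15-fold higher level (adjusted p = 0.046, limma moderated test on 24 libraries, Benjamini-Hochberg over 16996 genes). Gzmd rose from a median of 7.41 (7.15 to 8.20) to 8.41 (8.05 to 9.27), a difference of 0.99 ± 0.20 (adjusted p = 0.047). The groups again overlapped only through C1, at 8.20. Across all genes tested, 0.135% were called higher in this comparison (23 genes), against these 2 of 10 members. Both calls lay close to the threshold: leaving out any 1 of 16 libraries ended the call for Gzmc and any 1 of 17 ended that for Gzmd, with the direction kept each time.

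Gzme and Gzmf, which also lie in the chromosome 14 cluster, gave much the same picture just past the threshold. Untreated Gzme ran from 6.28 to 7.15 (median 6.51) and T-PNU Gzme from 6.85 to 8.09 (median 7.30). The difference was 0.80 ± 0.19 (limma adjusted p = 0.058). For Gzmf the untreated range was 6.96 to 8.30 (median 7.41) and the T-PNU range 7.83 to 9.09 (median 8.26), with a difference of 0.89 ± 0.21 (limma adjusted p = 0.058). In both genes 5 untreated libraries were below every T-PNU library and C1 was not. The T-PNU library G1 was the highest of all 24 for Gzmc, Gzmd, Gzme and Gzmf, while for Gzma, Gzmk, Gzmb, Prf1, Nkg7 and Fasl it was not.

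Gzmb, the best-known effector protease, was between 9.90 and 12.39 in untreated tumors (median 10.55) and between 11.02 and 12.27 after T-PNU (median 11.57). The highest value of all 24 was again C1, and the other 5 untreated libraries were at 10.57 or lower, below the whole T-PNU group. The mean difference was 0.88 ± 0.29 (limma adjusted p = 0.091). Gzma, the tryptase-type granzyme, ran from 8.80 to 10.59 in untreated tumors (median 9.34) and from 9.83 to 10.62 after T-PNU (median 10.38), a difference of 0.85 ± 0.24 (limma adjusted p = 0.070). Here too only C1 (10.59) reached the T-PNU range. Gzmk, the gene next to Gzma, behaved least like the others: T-PNU values spread from 6.04 to 7.59 (median 6.88) around untreated values of 6.15 to 8.10 (median 6.27). Its groups overlapped widely and the difference was 0.31 ± 0.28 (limma adjusted p = 0.48).

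Prf1, which encodes perforin, was at 7.36 to 9.85 in untreated tumors (median 8.16) and at 8.75 to 9.82 after T-PNU (median 9.24), a difference of 0.92 ± 0.30 (limma adjusted p = 0.088). For Nkg7 the untreated range was 8.48 to 10.77 (median 8.96) and the T-PNU range 9.43 to 10.66 (median 10.07), a difference of 0.87 ± 0.31 (limma adjusted p = 0.10). In both genes C1 held the highest value of the 24 and the other untreated libraries were below every T-PNU library. Fasl differed in that B1 (8.55) as well as C1 (8.94) lay among the T-PNU values of 7.79 to 9.04. The remaining 4 untreated libraries were between 6.98 and 7.78, and the Fasl difference was 0.67 ± 0.31 (limma adjusted p = 0.19).

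Counted over the members, 8 of 10 (all but Gzmk and Fasl) had at least 5 untreated libraries below every T-PNU library, a count chosen after the values were seen, against 5.30% of all genes. The median difference was 0.88 on the log2 scale for the 10 members and 0.01 for all genes, and 9 of 10 members had an unadjusted p under 0.05 (4218 of 16996 genes did). C1 was singled out after its values for these members were seen, so the count without it is a description: 10 of 10 members then fell under an adjusted p of 0.05, with differences of 0.61 (Gzmk) to 1.32 (Gzmc), against 7.55% of all genes. In the 20 libraries, 10 of 10 were called as well, from 0.66 ± 0.22 for Gzmk (limma adjusted p = 0.033) to 1.35 ± 0.23 for Prf1 (limma adjusted p = 0.0025), against 15.3% of all genes, and for 9 of 10 (all but Gzmk) every T-PNU library was above every untreated one, against 8.03%. With the weights that limma gives to libraries that vary more, 10 of 10 were called too, against 17.1% of all genes. From 24 to 20 libraries the median difference of the members went from 0.88 to 1.15, and the SD of untreated Gzmc from 0.54 (n = 6) to 0.089 (n = 4).

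**Figure D2:**
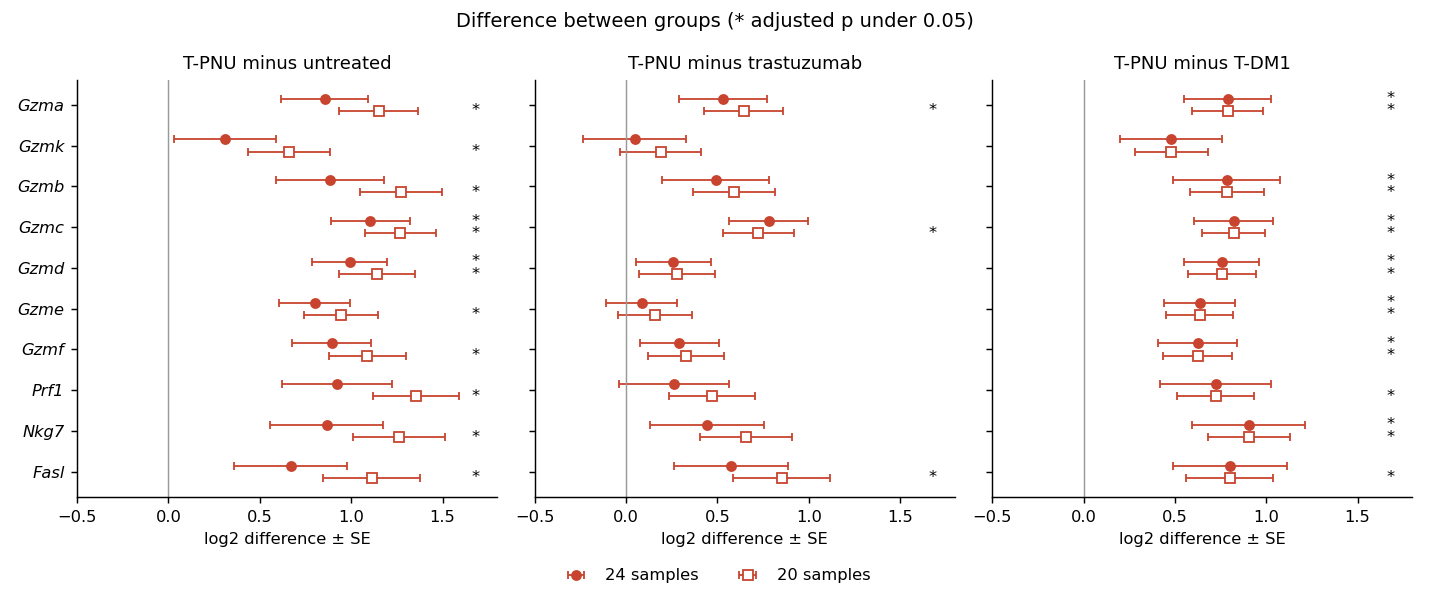
Difference in log2 normalized expression between T-PNU and each other group for the 10 genes, with its SE, in 24 libraries (filled) and in 20 (hollow); an asterisk marks an adjusted p under 0.05. All differences are above 0, those from trastuzumab are the smallest for all 10 genes in 24 libraries, and the calls against untreated tumors go from 2 to 10 when 4 libraries are left out.

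The comparison of T-PNU with T-DM1 sets 2 conjugates of the same antibody side by side, which differed in payload, in linker and way of conjugation, and in dose (1 and 15 mg/kg). Gzmc ran from 8.60 to 9.72 after T-DM1 (median 9.06), Gzmb from 10.52 to 11.28 (median 10.69) and Nkg7 from 8.58 to 9.54 (median 9.22). T-PNU values were higher by 0.82 ± 0.22 for Gzmc (limma adjusted p = 0.0084), by 0.78 ± 0.29 for Gzmb (adjusted p = 0.047) and by 0.90 ± 0.31 for Nkg7 (adjusted p = 0.033). The groups still overlapped in every member, since 1 or more T-DM1 libraries reached the lowest T-PNU value: 0 of 10 members were free of overlap, against 5.45% of all genes. In Gzma (0.79 ± 0.24), Gzmd (0.76 ± 0.20), Gzme (0.64 ± 0.19) and Gzmf (0.62 ± 0.21) the difference also passed. Prf1 (0.72 ± 0.30, limma adjusted p = 0.072), Fasl (0.80 ± 0.31, adjusted p = 0.055) and Gzmk (0.48 ± 0.28, adjusted p = 0.19) did not. The 7 calls compare with 12.4% of all genes called higher in T-PNU than in T-DM1, and the medians were 0.77 for the members and 0.03 for all genes. In the 20 libraries 9 of 10 were called, all but Gzmk, against 19.8% of all genes. On 24 libraries the number fell to 4 when the T-PNU library H1 or D2, or the T-DM1 library F3 or G3, was left out. The share of all genes called was not computed for those fits. Among the members the difference from T-DM1 spanned 0.48 to 0.90.

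Cell type markers differed between these 2 groups as well. On 24 libraries 5 of 7 NK markers with a value were higher in T-PNU, among them Ncr1 by 0.71 (adjusted p = 0.022), as were 2 of 6 neutrophil and 2 of 7 macrophage and monocyte markers. Of the CD8 and pan T cell markers 0 of 2 and 0 of 8 passed, with Cd8a at 0.92 ± 0.36 (limma adjusted p = 0.058) and pan T cell differences of 0.71 to 1.05. The part of these marker levels in the 7 calls was not tested.

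After trastuzumab alone, the naked antibody, the mean of each member lay between those of the untreated and T-PNU groups. No member passed the test between T-PNU and trastuzumab on 24 libraries, where 0.00588% of genes (1 gene) were called higher and 3308 had an unadjusted p under 0.05. Gzmc came nearest: trastuzumab libraries lay between 8.93 and 9.39 (median 9.10) and T-PNU libraries between 9.57 and 10.40, with no overlap, and the difference was 0.78 ± 0.22 (limma adjusted p = 0.14). It was the only member without overlap between these 2 groups, against 0.894% of all genes. Its call passed without the untreated library C1, which enters through the shared estimate of spread. The smallest difference was that of Gzmk, 0.046 ± 0.28 (limma adjusted p = 0.93) with a 95% interval of -0.53 to 0.63. Gzme was next, at 6.92 to 7.73 (median 7.16) after trastuzumab and 6.85 to 8.09 after T-PNU, a difference of 0.09 ± 0.19 with a 95% interval of -0.31 to 0.49. In the 20 libraries Gzma (0.64 ± 0.22, adjusted p = 0.035), Gzmc (0.72 ± 0.19, adjusted p = 0.016) and Fasl (0.85 ± 0.27, limma adjusted p = 0.027) were called, against 14.6% of all genes, and 7 members were not. With sample weights 1 member was called, against 5.62% of all genes.

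Trastuzumab and untreated tumors differed by 0.09 (Fasl) to 0.73 (Gzmd), with 0 members past the threshold. Gzmd was between 7.92 and 8.64 after trastuzumab (median 8.13), a difference of 0.73 ± 0.20 from untreated (limma adjusted p = 0.14). For Gzme the difference was 0.71 ± 0.19 (limma adjusted p = 0.13) and for Gzmf 0.60 ± 0.21 (adjusted p = 0.33). Prf1 was higher by 0.66 ± 0.30 (limma adjusted p = 0.54), and by 0.88 ± 0.26 in the 20 libraries (adjusted p = 0.62). In Gzmc, Gzmd, Gzme and Gzmf 5 of the 6 untreated libraries were below every trastuzumab library, and C1 was not. The NK cell marker Ncr1 had the same pattern. How many of all genes had it was not computed, so it cannot be read as particular to these members. The mean differences of Gzmc (0.32 ± 0.22) and Gzmb (0.39 ± 0.29) were smaller than those of Gzmd, Gzme, Gzmf and Prf1. In this limma comparison 0 of 10 members were called, against 0.247% of all genes called higher, and 1491 genes had an unadjusted p under 0.05, 4 of them members. With sample weights 2 members were called, against 0.959% of all genes.

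T-DM1 left the members near their untreated levels. Its 10 differences from untreated tumors ran from -0.17 (Gzmk) to 0.28 (Gzmc), of which 0 were called, against 4.11% of all genes higher, and 0 members had an unadjusted p under 0.05 (3973 genes did). For Gzmb the difference was 0.10 with a 95% interval of -0.51 to 0.71, and for Gzmc 0.28 with an interval of -0.16 to 0.73, and changes inside these intervals cannot be told from none. Without the 2 untreated libraries that the heatmaps do not name, all 10 T-DM1 differences were above 0, from 0.18 (Gzmk) to 0.63 (Prf1), with 4 members under an unadjusted p of 0.05 and 0 called. T-DM1 against trastuzumab gave 10 differences below 0, from -0.55 (Gzme) to -0.04 (Gzmc), and 0 calls, against 0.435% of all genes called lower and 2604 under an unadjusted p of 0.05. These comparisons share their control libraries and are not independent of each other.

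Ratios within a library were looked at for a few chosen pairs of chromosome 14 genes. How often other gene pairs separate the groups was not computed. Gzmb minus Gzmc overlapped between all groups. It ran from 1.211 to 1.995 after T-PNU, 1.306 to 2.346 after trastuzumab, 1.281 to 2.092 after T-DM1 and 1.308 to 2.524 in untreated tumors. The difference Gzmc minus Gzme within each library, looked at after the group values were known and so given without a test, had a mean of 2.53 ± 0.18 (SD, n = 6) after T-PNU and 1.83 ± 0.31 after trastuzumab. The 6 T-PNU libraries (2.31 to 2.73) were all above the 6 trastuzumab libraries (1.36 to 2.18), and untreated (1.81 to 2.72) and T-DM1 libraries (2.02 to 2.58) lay between and across them. Gzmd minus Gzme, the pair most alike in sequence, had means of 0.94 ± 0.09 in untreated, 0.95 ± 0.15 in trastuzumab, 1.01 ± 0.14 in T-DM1 and 1.13 ± 0.05 in T-PNU tumors. All 6 T-PNU libraries (1.08 to 1.20) were above all 6 untreated ones (0.86 to 1.05), again without a test, and the sequence shared by these 2 genes limits what this difference measures.

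**Figure D3:**
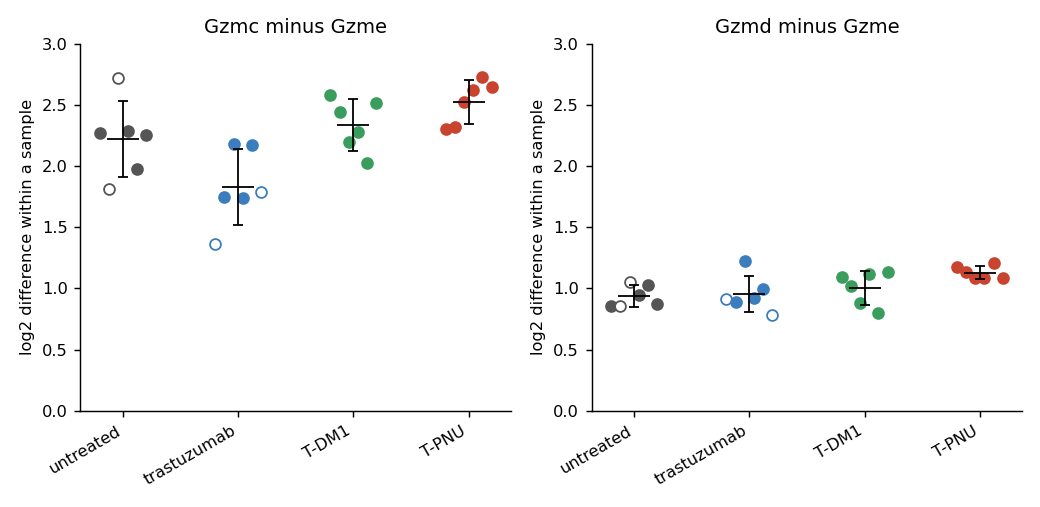
Gzmc minus Gzme (left) and Gzmd minus Gzme (right), in log2 units within each library, by group on the x axis, with the mean and SD of 6 libraries; hollow points are the 4 libraries not named in the study's heatmaps. The T-PNU libraries are higher than the trastuzumab libraries on the left (2.31 and more against 2.18 and less), and higher than the untreated libraries on the right (1.08 and more against 1.05 and less).

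Correlations between members over the 24 libraries are a description of pairs that share libraries, and the members are grouped here after the values were seen, with no clustering. Pairs among Gzmc, Gzmd, Gzme and Gzmf had Pearson's r between 0.78 and 0.97 (6 pairs), and pairs among the other 6 members between 0.74 and 0.96 (15 pairs). Between these sets r ran from 0.46 to 0.82 (24 pairs), and the ranges overlapped: Gzmb and Gzmc (r = 0.82), from different sets, were more alike than Gzmc and Gzme (r = 0.78). Gzmd and Gzme were the closest pair (r = 0.97), followed by Prf1 and Nkg7 (r = 0.96) and Gzmb and Nkg7 (r = 0.95).

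The levels of lymphocyte markers moved with many of the members. The slope of each member on Cd8a within groups was fitted with limma across all genes, where 22.6% of genes had a positive slope past the threshold. Fasl followed Cd8a most closely, rising by 0.82 ± 0.05 log2 units per log2 unit of Cd8a (limma adjusted p = 5.2e-10). Nkg7 (0.76 ± 0.08), Prf1 (0.74 ± 0.08), Gzmb (0.61 ± 0.11), Gzmk (0.60 ± 0.10) and Gzma (0.47 ± 0.10) also passed. Gzmc to Gzmf did not, with slopes of 0.13 ± 0.12 for Gzmc, 0.16 ± 0.11 for Gzmd, 0.20 ± 0.10 for Gzme and 0.27 ± 0.11 for Gzmf. For Fasl the correlation over libraries was r = 0.97 and Spearman's rho = 0.95 (permutation p = 1e-05 for each, the smallest that 100000 permutations can give, n = 24), r was 0.96 without the 2 libraries farthest from the median (C1 and C2) and 0.97 within groups. For Gzmc it was r = 0.46 and rho = 0.44 (permutation p = 0.024 and 0.032, adjusted over 20 relations the same values), 0.39 without those libraries and 0.22 within groups. The permutations took all 24 libraries without regard to group, so their p-values include differences between groups. The Gzmc slope within groups had a limma adjusted p of 0.42. In the 20 libraries the Gzmc slope was -0.065 and the Gzmd slope -0.031, and 5 members passed, against 12.4% of all genes.

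Ncr1, which encodes the NK cell receptor NKp46, showed another order. Its slopes past the threshold numbered 9 of 10 members, against 5.11% of all genes, and ran from 0.65 ± 0.16 for Gzmf to 1.12 ± 0.16 for Gzmb, with Fasl (0.80 ± 0.25, limma adjusted p = 0.060) the exception. Gzme (r = 0.90, rho = 0.89), Gzmd (r = 0.87, rho = 0.87) and Gzmb (r = 0.87, rho = 0.88) followed Ncr1 most closely over the 24 libraries, each with a permutation p of 1e-05 and 1.8e-05 after adjustment of r over the 20 relations. Fasl followed it least (r = 0.65, rho = 0.68, permutation p = 0.00069 and 0.00046). Without C1, a library singled out after its values were seen, 3 of 10 members passed (Gzmb, Gzmd and Gzme), against 0.518% of all genes, with slopes of 0.39 ± 0.23 (Gzmk) to 0.83 ± 0.23 (Nkg7). The slope was larger without it for Gzmd (0.72 and 0.75) and Gzme (0.72 and 0.81), and smaller for every other member. Over the 20 libraries 1 passed, Gzme, against 0.206%, with slopes of 0.30 (Gzmk) to 0.85 (Gzmb). Whether single members differ from each other in their slope was not tested, and CD8 T cells, NK cells and other lymphocytes all contribute to a bulk level.

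**Figure D4:**
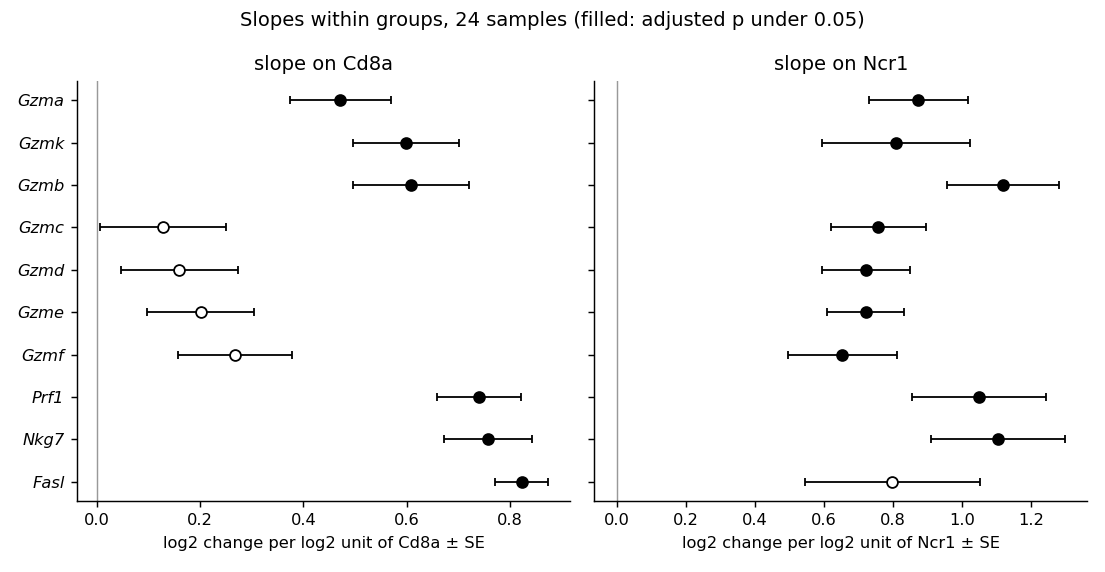
Change of each gene per log2 unit of Cd8a (left) or Ncr1 (right) within groups, with its SE, in 24 libraries; filled points have an adjusted p under 0.05. Fasl is highest on Cd8a at 0.82 and Gzmc lowest at 0.13, whereas on Ncr1 all 10 genes lie between 0.65 and 1.12.

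**Figure D5:**
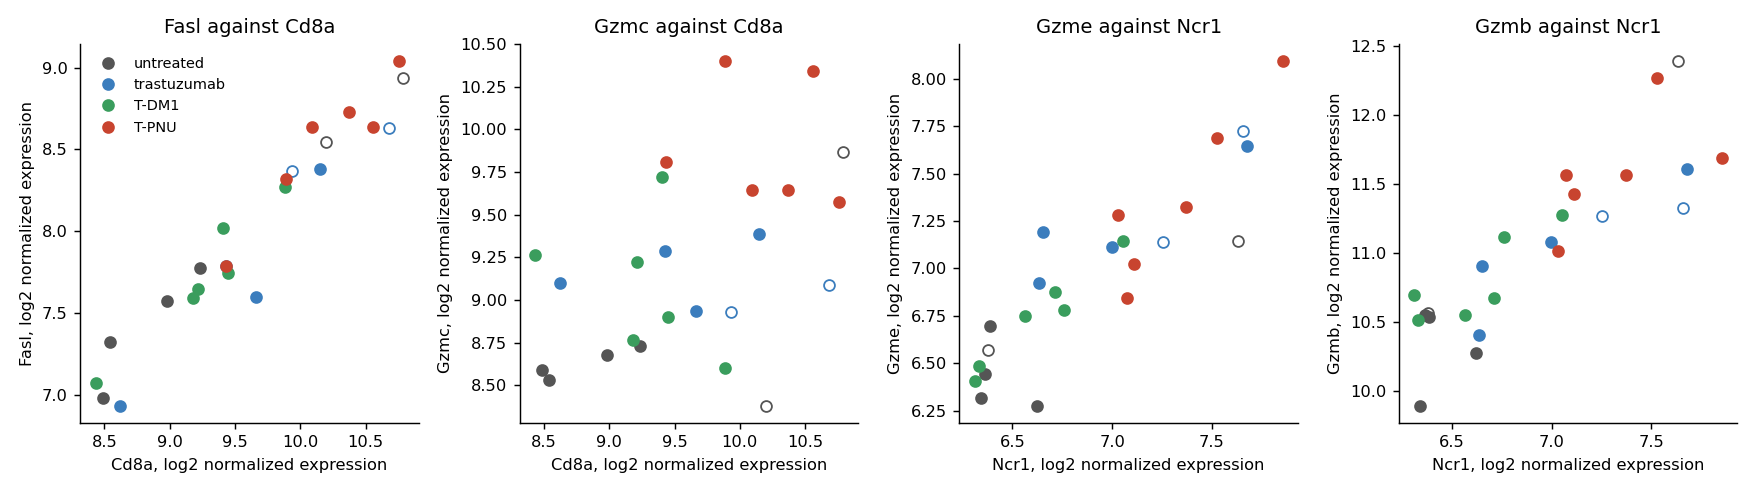
Each point is 1 of 24 libraries, colored by group, with the log2 normalized expression of a marker on the x axis and of a granule gene on the y axis; hollow points are the 4 libraries not named in the study's heatmaps. Fasl lies along a line with Cd8a (r = 0.97), Gzmc scatters around it (r = 0.46), and Gzme (r = 0.90) and Gzmb (r = 0.87) follow Ncr1.

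Once Cd8a or Ncr1 was added to the group comparison as a covariate, 0 of 10 members were called in limma's test in any of the comparisons of T-PNU with the other groups. Few genes of any kind were called higher in these fits. With Cd8a the shares were 0% against untreated tumors, 0.00588% against trastuzumab and 2.38% against T-DM1, and with Ncr1 0%, 0% and 0.0294%. The remaining differences from untreated tumors were 0.00177 (Fasl) to 1.00 ± 0.24 (Gzmc) for 9 members with Cd8a in the fit, with Gzmk at -0.18. With Ncr1 they were 0.085 (Nkg7) to 0.57 ± 0.17 (Gzmc), with Gzmk at -0.26. From T-DM1 they ran from -0.072 (Gzmk) to 0.70 ± 0.24 (Gzmc, limma adjusted p = 0.069) with Cd8a and from -0.091 (Gzmk) to 0.29 ± 0.17 (Gzmc) with Ncr1. At an unadjusted p under 0.05 there were 6 members against untreated tumors, 2 against trastuzumab and 3 against T-DM1 with Cd8a, and 4, 2 and 0 with Ncr1, beside 1429 to 4425 of all genes. For T-PNU against untreated tumors the markers themselves were higher by 0.81 ± 0.36 (Cd8a, limma adjusted p = 0.17), 0.96 ± 0.48 (Cd3e, adjusted p = 0.21) and 0.71 ± 0.22 (Ncr1, adjusted p = 0.084) on 24 libraries. In the 20 libraries, without a covariate, 2 of 2 CD8 markers, 8 of 8 pan T cell markers, 3 of 3 CD4 markers and 7 of 7 NK markers with a value were called higher in T-PNU than in untreated tumors, against 15.3% of all genes. The mean level over the NK markers, as a deviation from each gene's own mean, ran from 0.03 to 0.66 in T-PNU libraries and from -0.63 to 0.83 in untreated ones. The corresponding range for the CD8 markers was -0.25 to 1.30 in T-PNU and -1.32 to 1.09 in untreated tumors. Both covariates were measured after treatment in the same cells, so these fits cannot separate cell type levels from treatment. The part of these levels in the member differences was not tested.

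For each member the 3 genes outside the set with the most similar profile over 24 libraries were listed by Pearson's r. Fasl was most like Sytl2 (r = 0.98), Tbx21 (r = 0.97), the gene of the transcription factor T-bet, and Cd8a (r = 0.97). Nkg7 was closest to Pdcd1 (r = 0.96), which encodes the inhibitory receptor PD-1, to Klrc1 (r = 0.95) and to Il12rb2 (r = 0.95), and Prf1 to Pdcd1 (r = 0.93). Gzmb (r = 0.93) and Gzma (r = 0.92) shared Samhd1 as their nearest gene. Gzmd and Gzme both had Ncr1 first (r = 0.87 and 0.90) and the serpin gene Serpinb9b among the nearest 3 (r = 0.84 for each). Gzmf was closest to Fcrl6 (r = 0.86), Gzmc to Rnf144b (r = 0.88) and Gzmk to Wdr95 (r = 0.92). These genes were picked for their r, which is therefore a description.

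Other genes of granule killing are given by their counts, with no test against the members. Among 10 genes of granule loading and granzyme activation, 0 were called between T-PNU and untreated tumors on 24 libraries, and their differences ran from -0.36 ± 0.16 for Cd63, a granule membrane tetraspanin (limma adjusted p = 0.18), to 0.86 ± 0.29 for Ctsw, a cathepsin of cytotoxic cells (adjusted p = 0.093). Against T-DM1, where 12.4% of all genes were called higher and 17.4% lower (the shares to read all counts of this comparison against), 3 of the 10 rose and 1 fell: Ctsc, the protease that activates granzymes, was higher by 0.54, Ctsh by 0.48 and Cst7, a cathepsin inhibitor of cytotoxic cells, by 0.63, while Cd63 was -0.57. Of 12 genes of granule transport and release, 0 were called against untreated tumors (median difference 0.06, from -0.19 for Myo5a to 0.33 for Rab27a), and 3 rose against T-DM1: Rab27a by 0.52 (adjusted p = 0.026), Lyst by 0.61 and Was by 0.41. Rab27a docks granules at the membrane, and Lyst regulates their size. Over the 20 libraries 3 loading genes were higher and 1 lower than in untreated tumors, and 4 transport genes were higher, against 15.3% of all genes higher and 15.7% lower.

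Inhibitors of granule proteases went both ways. Serpinb9b, a relative of the granzyme B inhibitor Serpinb9, was 0.70 ± 0.17 higher in T-PNU than in untreated tumors (limma adjusted p = 0.058) and 0.46 ± 0.17 higher than in T-DM1 (adjusted p = 0.041), and Serpinb6a was -0.39 ± 0.18 (adjusted p = 0.18) and -0.48 ± 0.18 (adjusted p = 0.045). On 24 libraries 0 of 6 inhibitor genes were called against untreated tumors, and 1 rose and 1 fell against T-DM1. Among 10 genes of death ligands, receptors and adaptors 0 were called against untreated tumors: Tnfsf10, which encodes the death ligand TRAIL, was highest at 0.69 ± 0.20 (limma adjusted p = 0.070) and Bid, a substrate of granzyme B, lowest at -0.23 ± 0.13 (adjusted p = 0.28). Against T-DM1 only Casp8 was called, 0.24 higher. The related granzyme gene Gzmg had a difference of 0.58 ± 0.26 from untreated tumors (limma adjusted p = 0.17), while Gzmm, a granzyme gene outside both clusters, was at -0.04 ± 0.12 (adjusted p = 0.84) and lower than in T-DM1 by -0.33 ± 0.12 (adjusted p = 0.033).

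Regulators and receptors of cytotoxic lymphocytes follow. All 10 transcription factor genes had a difference above 0 between T-PNU and untreated tumors, with a median of 0.47 and 0 called, from 0.06 ± 0.13 for Prdm1 to 1.27 ± 0.61 for Tcf7 (limma adjusted p = 0.20). Tbx21 (0.85) and Eomes (0.68), the T-box factors of effector lymphocytes, were the 2 called against T-DM1. Of 13 cytokine and receptor genes 11 were above 0 against untreated tumors (median 0.50, 0 called), from -0.06 ± 0.18 for Ccl3 to 0.92 ± 0.26 for Il12rb2, the interleukin-12 receptor chain (limma adjusted p = 0.070). Against T-DM1 5 rose: Il12rb2 by 0.95, Il18r1 by 0.81, Il2rg by 0.59, Il2ra by 0.58 and Xcl1 by 0.58. In the 20 libraries 11 of 13 of these genes and 6 of 10 transcription factor genes were called higher than in untreated tumors, against 15.3% of all genes.

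Markers of other cells in the CD45+ fraction were read beside these values. On 24 libraries the T-PNU and untreated groups differed in 1 of 7 macrophage and monocyte genes, Ly6c2 (1.04 ± 0.20, limma adjusted p = 0.046), and in 0 genes of the B cell, naive lymphocyte, mast cell, plasmacytoid dendritic cell, neutrophil, proliferation and tumor or stromal lists. Among the 20 libraries 5 of 5 naive lymphocyte, 3 of 6 neutrophil, 2 of 5 plasmacytoid dendritic cell, 1 of 10 mast cell, 1 of 7 macrophage and 0 of 6 B cell genes were called higher, 6 of 7 proliferation genes lower, and 2 of the 8 tumor and stromal genes higher and 3 lower. Of all genes 15.3% were called higher and 15.7% lower there. B cell markers varied most between libraries, from -2.33 to 1.92 around their mean in untreated tumors and from -2.04 to 2.23 after T-PNU, with a median difference of 1.05. Against T-DM1, 3 tumor and stromal genes were higher (Epcam, Pecam1 and Cdh5) and 4 lower, among them Col1a1 at -1.62 and Pdgfrb at -1.57, beside the lower granzyme levels of the T-DM1 libraries. Of 10 mast cell and basophil genes, which matter here because such cells can hold granule proteases too, 0 were called against untreated tumors and 2 rose against T-DM1 (Kit by 0.56 and Ms4a2 by 0.42). The part of these lists in the member differences was not tested.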

How the data were processed

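RNA from CD45+ tumor cells of 24 mice (6 per group) was sequenced by the authors, who mapped single reads of 81 bases to mm10 with STAR 2.4.2a, counted them by strand with featureCounts (Subread 1.5.0), removed genes averaging under 5 counts and deposited log2 normalized values for 16996 genes; the transformation is not named and DESeq2 is listed among the tools. Groups came from the sample labels. The deposited values were compared with limma 3.58.1 (R 4.3.3): 1 linear model of the 4 groups, moderated with an intensity trend, Benjamini-Hochberg adjustment over all genes, called at an adjusted p under 0.05. The study's own test needs counts, which are not used here. Slopes on Cd8a and Ncr1 came from the same model with the marker added. The fit was tested on simulated data. Correlations used 100000 permutations of the 24 libraries without regard to group (numpy 2.4.6). Promoter windows came from RefSeq, positions from GENCODE M21, in which 99.6% of the identifiers were found, and alignments from Biopython 1.88. All 10 members are named; in other lists the genes with the highest and lowest difference between T-PNU and untreated tumors and the called genes are named where lists are described. The members and lists were chosen with earlier results of these data known. Read depth is unknown. P-values measure the spread between mice of 1 experiment.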

Additional observations from a re-analysis of the deposited data

Results flagged for a closer look

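In 40 combinations of gene and group, each of 6 libraries, 5 had a highest or lowest library far from the next. Its distance took up more of the group's range than Dixon's 95% limit allows. Chance gives about 1 in 20 for a single combination. The 40 share libraries and genes that vary together, so the 5 flags cannot be read against that rate. The untreated library C1 accounts for 4 of them. Its Gzmk value was 8.10, against 6.46 in the next untreated library, and its Gzmb value was 12.4, against 10.6. Its Gzmc value was 9.87, against 8.73, and its Nkg7 value was 10.8, against 9.20. The fifth was Gzmk in the trastuzumab library G2, at 6.06, below the next value of 6.83. C1 had the highest Cd8a level of the 24 libraries and G2 was near the bottom, at 10.79 and 8.62. The part of these levels in the distances was not tested.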

How the results depend on the processing

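Leaving out 1 library at a time gave between 0 and 10 called members for T-PNU against untreated tumors (10 only without C1), 4 to 9 against T-DM1, 0 to 1 against trastuzumab, 6 to 8 slopes on Cd8a and 3 to 10 on Ncr1. The 2 calls against untreated tumors became 10 in the 20 libraries and 10 with sample weights, 1 among genes above the median mean (where 4 members were kept and tested), and 0 with quantile normalization, with the 2 groups fitted alone, at an adjusted p under 0.01 and a fold above 2, and with Cd8a or Ncr1 as covariate. The 7 calls against T-DM1 became 4 among genes above the median mean and 0 at the stricter threshold and with either covariate. Against trastuzumab 3 members were called in the 20 libraries and 1 with weights, and trastuzumab against untreated gave 2 with weights. Slopes past the threshold numbered 10 on Cd8a with no group term, and 1 on Ncr1 in the 20 libraries (against 0.206% of all genes). For the fit with no group term the share of all genes was not computed, so that its 10 cannot be read against one. Nor was the share computed for quantile normalization, the 2 groups alone, genes above the median mean or the stricter threshold. With 1 library left out it was computed only without C1. It was then 7.55% for T-PNU against untreated tumors and 0.518% for slopes on Ncr1. Changes in the other counts cannot be read as particular to the members. The cause of each change was not tested.

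Of 1588 values of single genes under the alternatives, 1395 kept their direction and side of the threshold, 69 passed it, 106 no longer did and 18 changed sign. With Cd8a as covariate the Gzmk difference of T-PNU was -0.18 from untreated, -0.22 from trastuzumab and -0.072 from T-DM1, and that from trastuzumab was -0.00165 for Gzme and -0.062 for Prf1. With Ncr1 it was -0.26, -0.10 and -0.091 for Gzmk, -0.045 from trastuzumab for Gzme, and from T-DM1 -0.00671 for Gzmb and -0.019 for Prf1. Against trastuzumab Gzmk lay between -0.11 and 0.22 and Gzme between -0.057 and 0.19 when 1 library was left out. The slope on Cd8a was -0.065 for Gzmc and -0.031 for Gzmd in the 20 libraries, and -0.10 for Gzmc without C1 (highest 0.19). No paired analysis was possible because the labels give the groups no shared replicate numbers. Unknown read depth limits all values of low genes such as Gzmk.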
